A study of Mus musculus with 6 samples.

Results

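The genes described here are 10 brakes of the cell cycle, chosen by symbol from the 39171 mouse genes of the deposited expression table. They are the cyclin-dependent kinase (CDK) inhibitor genes Cdkn1a, Cdkn1b, Cdkn2a, Cdkn2b, Cdkn2c and Cdkn2d, and the antiproliferative genes Ccng1, Wee1, Trp53inp1 and Btg2. Each symbol matched 1 row. Heart ventricles of wild-type mice of the outbred CD-1 stock gave the polyadenylated RNA that was sequenced, with 3 libraries from animals 1 day old (P1) and 3 from animals 2 days old (P2). No treatment is named in the labels. Setting P2 against P1 shows how far the brakes on division differ over a single day at an age when the muscle cells of the mouse heart still divide.

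CDKs drive the cell cycle when bound by cyclins. The Cip/Kip inhibitors, here p21 (Cdkn1a) and p27 (Cdkn1b), bind CDK and cyclin together, whereas the Ink4 inhibitors p15 (Cdkn2b), p18 (Cdkn2c) and p19Ink4d (Cdkn2d) bind CDK4 and CDK6 and keep the D-type cyclins away. Cdkn2a encodes p16Ink4a and, in another reading frame, p19Arf, which restrains the p53 inhibitor MDM2. p53 activates Cdkn1a, Ccng1 (cyclin G1), Trp53inp1 (a stress protein that acts with p53) and Btg2 (an antiproliferative partner of mRNA deadenylases). WEE1 is a kinase that places an inhibitory phosphate on CDK1 and so delays mitosis. In the mouse heart, muscle cells leave the cell cycle during the first weeks after birth, and p21 and p27 are among the inhibitors linked to that exit.

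The windows upstream of the annotated start sites of Ccng1, Cdkn1a and Cdkn2d are shown because the levels of these 3 genes in all P2 libraries lay above those in all P1 libraries and because each window holds a p53 half-site, the 10-base unit from which p53 binding elements are built. The sequences are from RefSeq on GRCm38.p6 and run over the 250 bases before the start site, 5′ to 3′ on the strand of the gene, with matches to the half-site in capitals.
Ccng1, chr11:40755287-40755536, minus strand: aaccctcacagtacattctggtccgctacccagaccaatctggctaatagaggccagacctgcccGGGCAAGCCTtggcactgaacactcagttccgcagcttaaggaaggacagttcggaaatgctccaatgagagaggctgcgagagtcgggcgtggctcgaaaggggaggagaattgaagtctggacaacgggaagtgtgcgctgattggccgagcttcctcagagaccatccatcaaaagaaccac
Cdkn1a, chr17:29090729-29090978, plus strand: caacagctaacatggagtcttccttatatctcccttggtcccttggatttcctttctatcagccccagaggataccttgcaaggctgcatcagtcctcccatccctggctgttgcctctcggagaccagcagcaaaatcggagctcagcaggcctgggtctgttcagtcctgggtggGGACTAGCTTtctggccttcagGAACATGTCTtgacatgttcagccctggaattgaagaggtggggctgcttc
Cdkn2d, chr9:21291210-21291459, minus strand: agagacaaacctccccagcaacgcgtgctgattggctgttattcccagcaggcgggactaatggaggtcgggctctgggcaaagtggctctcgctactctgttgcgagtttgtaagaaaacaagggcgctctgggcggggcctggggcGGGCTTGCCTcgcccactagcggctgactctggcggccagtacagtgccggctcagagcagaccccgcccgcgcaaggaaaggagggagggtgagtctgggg
The match in Ccng1 begins 185 bases before the start site, the matches in Cdkn1a begin 73 and 51 bases before it, and the match in Cdkn2d begins 102 bases before it. The window shown for Cdkn1a belongs to the upstream of its annotated start sites. Its other window, chr17:29093519-29093818, holds 0 matches to the half-site. RefSeq promoter windows of 300 bases, 250 before and 50 after a start site, were found for 8 of the 10 genes, namely those other than Wee1 and Trp53inp1. They made 11 windows, because Cdkn1a, Cdkn2a and Cdkn2c have a second start site. Both strands were searched, and a half-site stood in 3 of the 11 windows, those shown above. The share was 8.36% of 32851 windows over all genes, with 1 chromosome left out of that background. The gene list includes known p53 targets and was chosen with earlier results of these data known. This comparison is therefore a description and was not tested. The E-box CACGTG, at which clock proteins bind, stood in 1 of the 11, a window of Cdkn2c, against 7.15% of all windows. The D-box TTANGTAA, bound by clock output factors, stood in 0 of the 11, against 2.32%. A match is a run of letters and not a measured binding site, and a window without one says nothing of the factor.

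Levels are given in FPKM, that is, fragments per kilobase of transcript, scaled to the size of the library. The FPKM sum was between 716968 and 754510 in P1 and between 807632 and 858436 in P2, and 13355 to 13429 genes reached 1 FPKM per library. The 37 genes of the mitochondrial chromosome held 30.8%, 34.5% and 32.2% of the sum in the P1 libraries, in replicate order, while the P2 libraries had 38.2%, 33.6% and 39.5%, with P2 replicate 2 inside the P1 range. Without them the sums ran from 494013 to 506312 in P1 and from 514718 to 536434 in P2. The table holds no fragment counts, so absolute depth is unknown. Relative to P1 replicate 1, the value of 1 fragment in the other libraries lay between 0.93 and 1.11, read from the commonest ratio among genes under 0.05 FPKM. From 23.5% (P2 replicate 2) to 40.7% (P1 replicate 2) of those genes lay within 5% of that ratio, so it is a rough estimate. Of 9 listed heart muscle cell markers, Myh6 was listed at 0 in all libraries and Tnnt2 in all P1 libraries, so an exact 0 may be a failed estimate; the other 7 lay between 110 and 3867 FPKM. Although ventricles had been dissected, atrial markers were present, and their summed level (Sln, Myl7, Myl4, Nppa and Bmp10) was 947 to 1498 FPKM in P1 and 541 to 771 in P2. In bulk tissue a change in the number of cells of a type and a change in RNA per cell cannot be told apart.

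Most brake genes were well expressed on both days, and none passed the test between them. Levels in FPKM are per length, and genes are ranked by them here. The ranking takes each estimate as sound, although those of Myh6 and Tnnt2 above may have failed. Averaged over the 6 libraries, Ccng1 stood highest at 102 FPKM, above 94.2% of the genes with at least 1 FPKM. Cdkn2d (30.8 FPKM), Cdkn1b (28.6), Cdkn1a (22.2), Cdkn2c (15.9), Btg2 (14.5), Wee1 (13.9) and Trp53inp1 (7.07) followed. Cdkn2b (0.211 FPKM) and Cdkn2a (0.0594) were close to 0. Ranges over the 6 libraries did not overlap between Ccng1 and Cdkn2d, between Wee1 and Trp53inp1, or between Trp53inp1 and Cdkn2b. All other neighbours in this order overlapped. Btg2 and Wee1 stood in opposite order on the 2 days, with Wee1 the higher of the pair in all 3 P1 libraries and Btg2 in all 3 P2 libraries.

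In limma's test over 13624 genes, 0 of the 8 brake genes that averaged 1 FPKM or more had a Benjamini-Hochberg adjusted p under 0.05. Over all tested genes, 0.161% were called, 0.0734% higher and 0.0881% lower in P2. At an unadjusted limma p under 0.05 there were 4 of the 8, namely Ccng1, Cdkn1a and Cdkn2d higher and Wee1 lower in P2, against 18.6% of all tested genes. The shares of all tested genes by direction were 10.7% higher and 7.89% lower. For the same 4 genes the ages did not overlap, which was so for 25.0% of all tested genes, 14.4% with every P2 library on top and 10.6% with every P2 library underneath. The members were chosen with earlier results of these data known, so their counts beside these shares are a description only. The median log2 change of the 8 genes was 0.20, beside 0.01 for all tested genes, with 7 above 0 and 1 below. Of the 13624 tested genes, 7458 were above 0. Cdkn1b and Trp53inp1, which are counted as above 0, were at 0.01, as was the median of all tested genes. The directions rest in part on the scaling. When each library was set to an equal FPKM sum, the median of all genes was -0.14 and that of the 8 genes 0.04, with 5 above 0 and 3 below. Under that scaling the calls over all genes went from 10 higher and 12 lower to 39 higher and 2394 lower, and the genes without overlap were 1.68% with P2 on top and 41.9% with P2 underneath. Among the 8 genes the ages then did not overlap for Ccng1, higher in P2, and for Cdkn1b, Trp53inp1 and Wee1, lower in P2. The total includes the mitochondrial genes, whose share is given above. When sums were set equal over the other genes alone, an alternative chosen after the values were seen, the median of all genes was -0.05 and that of the 8 genes 0.13, again with 5 above 0 and 3 below, and 0 of the 8 were called (limma). The calls over all genes were then 12 higher and 49 lower.

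**Figure D1:**
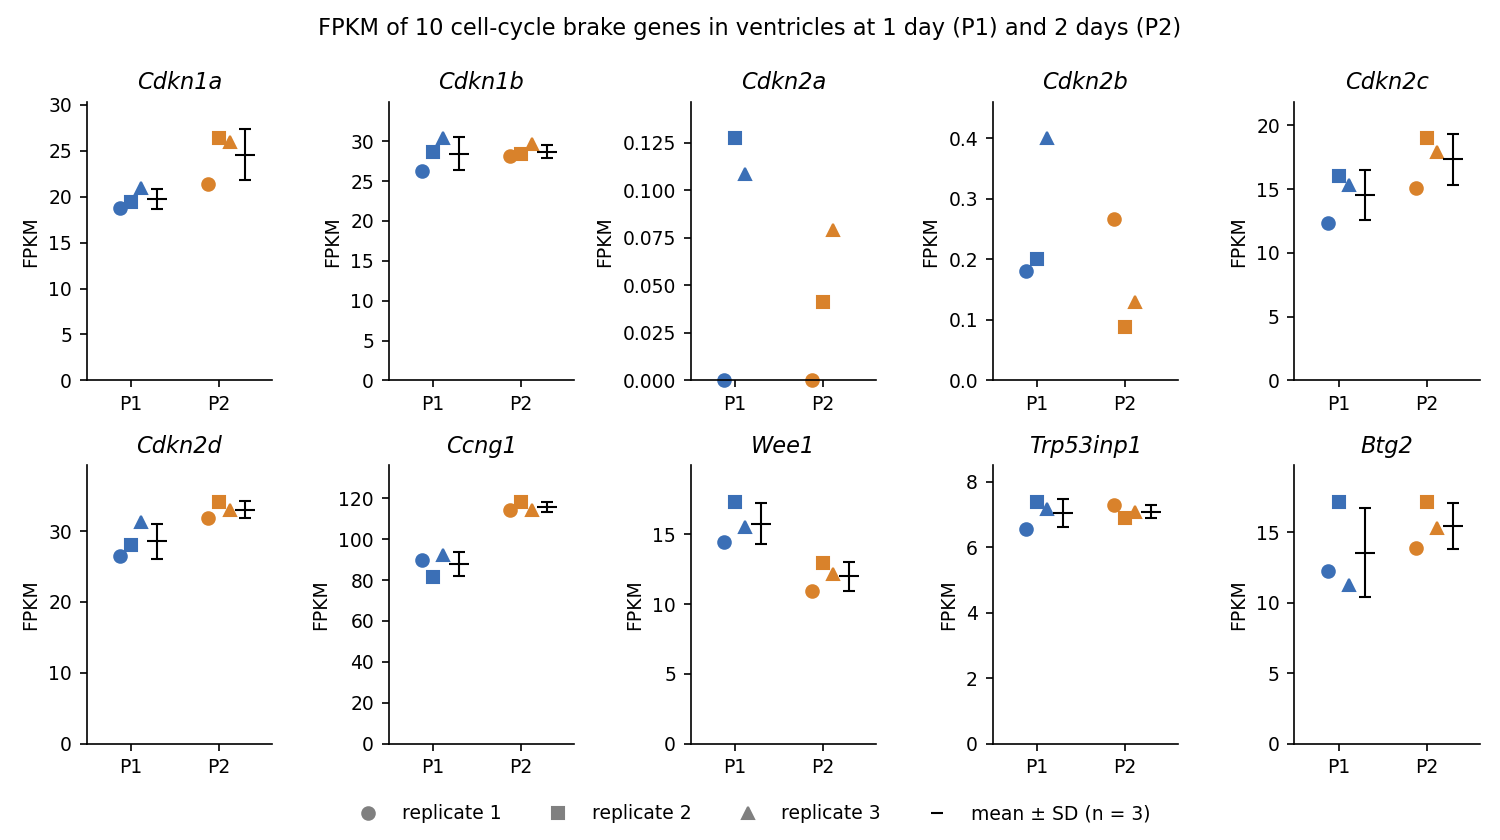
FPKM of each of the 10 genes in each library, by age, with replicates 1 to 3 as circles, squares and triangles and the mean ± SD (n = 3) beside them for the 8 tested genes; each panel has its own axis from 0. Points of P1 and P2 do not overlap for Cdkn1a, Cdkn2d, Ccng1 and Wee1, while Cdkn2a and Cdkn2b stay under 0.5 FPKM.

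Among the Cip/Kip inhibitors, Cdkn1a was higher in P2 and Cdkn1b was nearly level. Cdkn1a (ENSMUSG00000023067; chromosome 17, 29090976 to 29100727, GRCm38, GENCODE M21) was at 18.8, 19.4 and 20.99 FPKM in P1 replicates 1 to 3 and at 21.4, 26.4 and 25.9 in P2 replicates 1 to 3. The lowest P2 library was close to the highest P1 library, without overlap. The means were 19.7 ± 1.12 and 24.6 ± 2.76 FPKM (SD, n = 3 each), and the log2 value was 0.30 ± 0.09 higher in P2 (SE; limma, Benjamini-Hochberg adjusted p = 0.182). This change was 0.13 with equal FPKM sums. In that annotation 273 of the 3553 exon bases of Cdkn1a overlap a gene on the opposite strand, AC167363.2, which was not analysed here; the sources used here do not give whether fragments were assigned by strand.

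Cdkn1b (ENSMUSG00000003031; chromosome 6, 134920401 to 134925513) was at 26.3, 28.7 and 30.4 FPKM in P1 and at 28.1, 28.4 and 29.6 in P2. The P2 libraries lay within the range of the P1 libraries. The log2 change was 0.01, with a 95% interval from -0.13 to 0.16 (limma, Benjamini-Hochberg adjusted p = 0.919). It was -0.15 with equal FPKM sums. The FPKM ratio of Cdkn1b to Cdkn1a was 1.40, 1.48 and 1.45 in P1 and 1.31, 1.08 and 1.14 in P2, a measure that does not depend on the scale of the libraries. The 2 ages did not overlap in this ratio, which was chosen after the values were seen and was not tested.

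The Ink4 genes divided into an expressed and a barely detected pair. Cdkn2d (ENSMUSG00000096472; chromosome 9, 21288410 to 21291407) was at 26.4, 28.0 and 31.2 FPKM in P1 and at 31.8, 34.2 and 33.0 in P2. The highest P1 library came just short of the lowest P2 library. Its log2 change was 0.21 ± 0.07 (limma, Benjamini-Hochberg adjusted p = 0.202), and 0.04 with equal FPKM sums. Cdkn2c (ENSMUSG00000028551; chromosome 4, 109660876 to 109667189) was at 12.3, 16.0 and 15.3 FPKM in P1 and at 15.1, 19.0 and 17.9 in P2. The ages overlapped, with the lowest library in P1 and the highest in P2. Its log2 change was 0.24 ± 0.12 (limma, Benjamini-Hochberg adjusted p = 0.345), with a 95% interval from -0.05 to 0.53. The value was 0.13 without P1 replicate 1 and 0.08 with equal FPKM sums.

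Cdkn2a and Cdkn2b lie close together on chromosome 4 (89274471 to 89294653 and 89306299 to 89311039). Cdkn2a (ENSMUSG00000044303) was listed at 0 in replicate 1 of both ages, at 0.127 and 0.109 FPKM in P1 replicates 2 and 3 and at 0.0411 and 0.0790 in P2 replicates 2 and 3. Its 2 annotated transcripts, for p16Ink4a and p19Arf, share 1 row of the table and cannot be told apart. Cdkn2b (ENSMUSG00000073802) was at 0.181, 0.200 and 0.400 FPKM in P1 and at 0.266, 0.0880 and 0.129 in P2. The ages overlapped for both genes. Neither reached the mean of 1 FPKM required for the test, and at these levels no difference between the days was detectable.

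The 6 CDK inhibitors summed to 84.0, 92.4 and 98.4 FPKM in P1 and to 96.7, 108 and 107 in P2. The sums overlapped between the ages in 1 library, since P1 replicate 3 exceeded P2 replicate 1. Cdkn2d made up 30.3% to 31.7% of the sum in P1 and 31.0% to 32.9% in P2. Cdkn1b made up 30.9% to 31.3% in P1 and 26.3% to 29.1% in P2, and Cdkn1a 21.01% to 22.4% and 22.1% to 24.4%. Cdkn2c held 14.7% to 17.6% over all 6 libraries, and Cdkn2a and Cdkn2b at most 0.138% and 0.407%. The share of Cdkn1b alone did not overlap between the ages among the 4 abundant inhibitors.

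**Figure D2:**
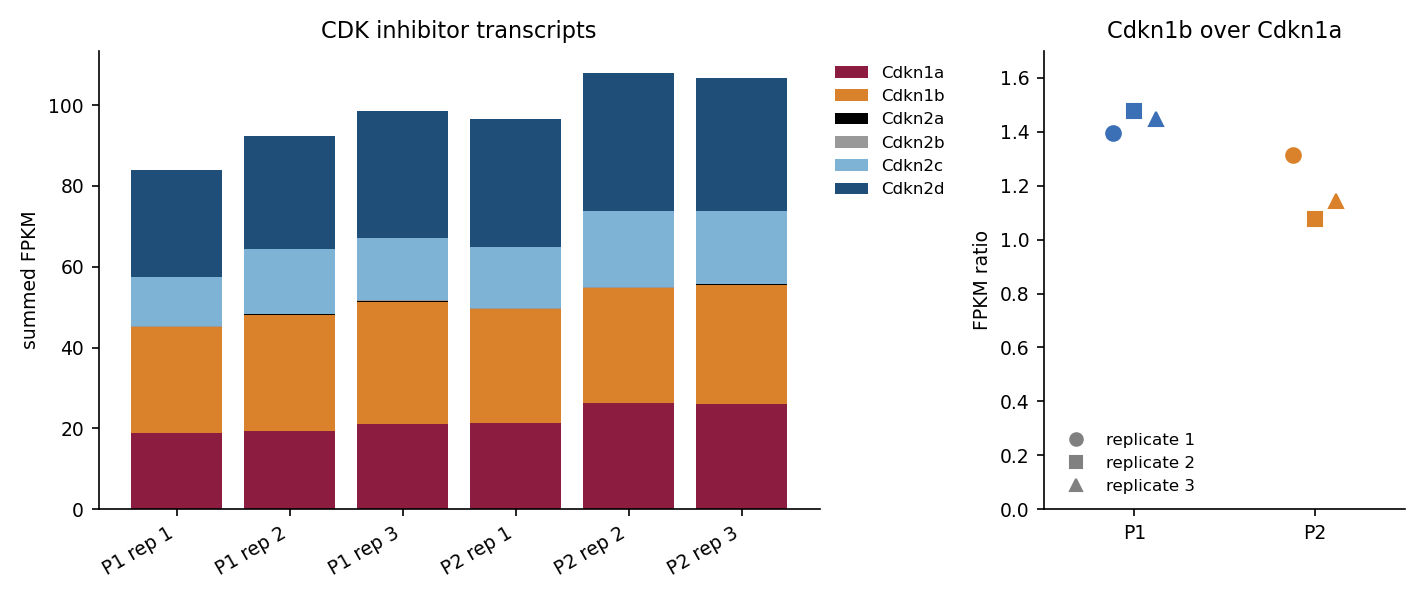
Left, stacked bars of the FPKM of the 6 CDK inhibitor genes in each library; right, the FPKM ratio of Cdkn1b to Cdkn1a in each library, by age. The segments of Cdkn2a and Cdkn2b are too thin to see at this scale, and the ratio lies between 1.40 and 1.48 in P1 and between 1.08 and 1.31 in P2.

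Of the p53-responsive brakes, Ccng1 had the smallest p of the 10 genes and Trp53inp1 was nearly level. Ccng1 (ENSMUSG00000020326; chromosome 11, 40748552 to 40755311) was at 90.0, 81.4 and 92.1 FPKM in P1 and at 114, 118 and 114 in P2. The P2 libraries lay close together and far above those of P1. The means were 87.8 ± 5.69 and 116 ± 2.41 FPKM (SD, n = 3 each), 1.32-fold, and the log2 change was 0.39 ± 0.05, with a 95% interval from 0.26 to 0.53 (limma, Benjamini-Hochberg adjusted p = 0.0759). A smaller p was found for 0.396% of the tested genes, and a larger absolute change for 4.71%. With equal FPKM sums the change was 0.22, and it kept its sign under all 17 alternatives of the fit. Ccng1 passed the test when genes listed at 0 in any library were left out (limma, Benjamini-Hochberg adjusted p = 0.0305), a setting added once the values were known, and without P1 replicate 1 the adjusted p was 0.214.

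Trp53inp1 (ENSMUSG00000028211; chromosome 4, 11156431 to 11174379) was at 6.56, 7.40 and 7.17 FPKM in P1 and at 7.29, 6.89 and 7.09 in P2. The P2 libraries fell within the P1 range. Its log2 change was 0.01, with a 95% interval from -0.12 to 0.14, and -0.14 with equal FPKM sums. Btg2 (ENSMUSG00000020423; chromosome 1, 134075170 to 134079120) was at 12.3, 17.2 and 11.3 FPKM in P1 and at 13.9, 17.2 and 15.3 in P2. P1 replicate 2 stood apart from the other P1 libraries and reached the level of the highest P2 library. The log2 change of Btg2 was 0.19 ± 0.16 (limma, Benjamini-Hochberg adjusted p = 0.551), 0.36 without P1 replicate 2 (adjusted p = 0.299) and 0.08 without P1 replicate 3.

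Wee1 was the only 1 of the 8 tested genes that was lower in P2 in the values as deposited. Wee1 (ENSMUSG00000031016; chromosome 7, 110122046 to 110143286) was at 14.5, 17.4 and 15.5 FPKM in P1 and at 10.9, 12.9 and 12.1 in P2. All P2 libraries lay below all P1 libraries. The means were 15.8 ± 1.47 and 11.99 ± 1.01 FPKM (SD, n = 3 each), and the log2 change was -0.37 ± 0.08, with a 95% interval from -0.58 to -0.16 (limma, Benjamini-Hochberg adjusted p = 0.140). With equal FPKM sums the change was -0.53 and passed the test (limma, Benjamini-Hochberg adjusted p = 0.0237). Under that scaling the median of all tested genes was -0.14, and 2394 of 13624 were called lower. The change of Wee1 kept its sign under all 17 alternatives. Wee1 lies within an antisense gene, 1600010M07Rik, that was not analysed here and with which it shares 0 exon bases. The FPKM ratio of Ccng1 to Wee1 was 4.69 to 6.23 in P1 and 9.17 to 10.48 in P2, a pair that was chosen for its opposite differences and is given as a description.

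**Figure D3:**
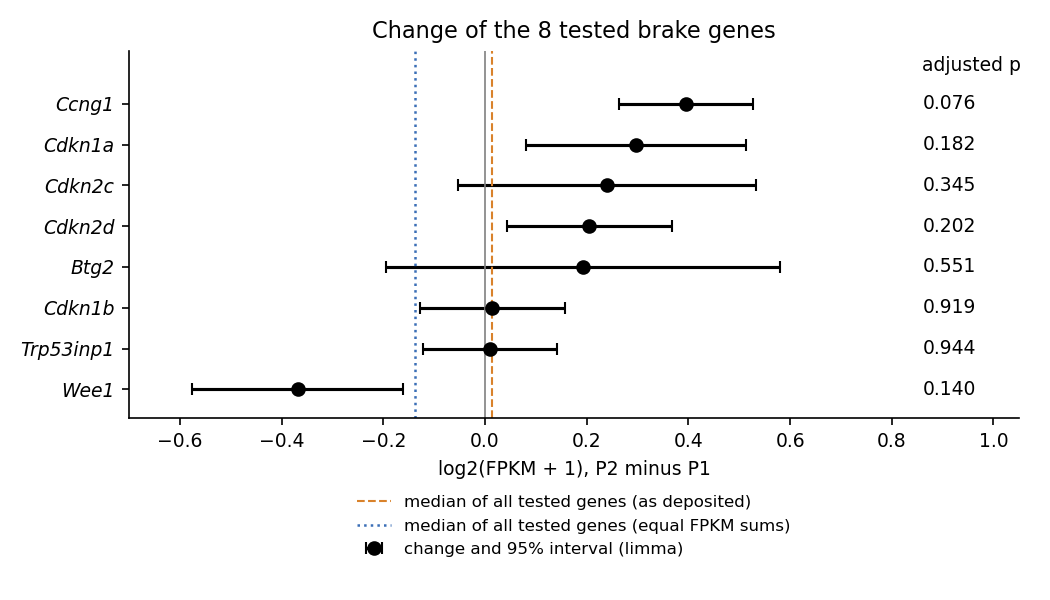
Log2 change (P2 minus P1, log2(FPKM + 1)) of the 8 tested genes with its 95% interval from limma and its adjusted p at the right; vertical lines mark the median of all tested genes as deposited (0.01) and with equal FPKM sums (-0.14). Ccng1 at 0.39 and Wee1 at -0.37 stand at opposite ends, and Cdkn1b and Trp53inp1 lie at 0.01.

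Among the proteins that the inhibitors bind and their partners, 0 of 13 tested CDK, cyclin and PCNA genes were called, with 10 higher and 3 lower in P2 and a median log2 change of 0.07. The mitotic cyclin genes Ccnb1 (17.2 ± 2.22 in P1 and 22.3 ± 2.43 FPKM in P2) and Ccnb2 (19.5 ± 2.06 and 24.0 ± 2.65) had the smallest unadjusted p. Of 11 genes that set or remove the inhibitory phosphate of CDK1 or regulate WEE1, 0 were called, 8 were higher and 3 lower, and the median was 0.07. The phosphatase gene Cdc25c, which acts against WEE1 on CDK1, had 3.74 ± 0.543 FPKM in P1 against 5.11 ± 0.602 in P2 (log2 change 0.37 ± 0.11; limma, Benjamini-Hochberg adjusted p = 0.180). With equal FPKM sums the medians of these lists were -0.07 and -0.09.

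In the p53 pathway, 0 of 13 regulators and 0 of 26 other target genes were called. Regulators were higher in 8 and lower in 5 (median log2 change 0.05), and targets higher in 16 and lower in 10 (median 0.04); with equal FPKM sums these medians were -0.12 and -0.11. Without P2 replicate 2 they were -0.02 and -0.0035, and without P1 replicate 1 that of the regulators was 0.0030. Trp53 itself had 36.1 ± 1.56 FPKM in P1 against 32.7 ± 1.90 in P2 (log2 change -0.14 ± 0.06), and the p53 kinase gene Hipk2 was 0.18 higher. Among targets, Perp, a membrane protein of cell junctions, was at 129 ± 4.95 and 149 ± 3.61 FPKM (log2 change 0.21 ± 0.04; limma, Benjamini-Hochberg adjusted p = 0.121). Mdm2, which encodes the ligase that degrades p53, was at 19.9 ± 0.470 and 22.0 ± 0.735 FPKM (0.14 ± 0.04; adjusted p = 0.173). All P2 libraries lay above all P1 libraries for 5 of the 26 targets and below them for 1, beside the 14.4% and 10.6% of all tested genes.

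The relatives of Btg2 and the regulators of the inhibitors gave no call either. Of 6 tested BTG and TOB genes and their partners, 3 were higher and 3 lower (median log2 change 0.02, and -0.15 with equal sums). Tob1, an antiproliferative relative of Btg2, had 23.8 ± 1.74 FPKM in P1 against 30.8 ± 1.86 in P2 (log2 change 0.36 ± 0.07; limma, Benjamini-Hochberg adjusted p = 0.119), and Tob2 was 0.20 higher. Of 11 genes for the turnover and FoxO-driven transcription of p21 and p27, 4 were higher and 7 lower (median -0.02, and -0.19 with equal sums). The transcription factor genes Foxo4 (15.8 ± 1.24 and 12.5 ± 0.899 FPKM) and Foxo3 (10.8 ± 0.696 and 9.27 ± 0.586) had the smallest p of that list, with log2 changes of -0.32 and -0.20. Of 11 Polycomb and other regulators of the Ink4 genes, 5 were higher and 6 lower (median -0.01, and -0.17 with equal sums). The Polycomb median was above 0 without P1 replicate 3 (0.02), P2 replicate 1 (0.04) or P2 replicate 3 (0.01), and that of the BTG and TOB list was -0.01 without P1 replicate 1 and 0.10 without P1 replicate 3. The histone demethylase gene Kdm6b was 0.23 lower on the log2 scale (14.5 ± 0.778 and 12.2 ± 0.295 FPKM), and Id1, an inhibitor of basic helix-loop-helix factors, 0.22 higher.

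Wee1 is controlled by the circadian clock in mouse liver, and Btg2 and Cdkn1a respond to growth and stress signals, so clock and immediate early genes are given beside them. Of 19 tested clock genes, 0 rose and 2 fell, as called by limma. These were Tef (log2 change -0.69 ± 0.03, SE, Benjamini-Hochberg adjusted p = 0.00222) and Per3 (-0.88 ± 0.09, adjusted p = 0.0496). The adjusted p of Per3 was 0.0557 with median ratio scaling and between 0.118 and 0.197 without P1 replicate 1 or 2 or any 1 P2 library, and over all alternatives it ran from 0.0100 to 0.210. All P2 libraries lay below all P1 libraries for 8 of the 19 and above them for 4, beside 10.6% and 14.4% of all tested genes. Changes on the log2 scale ran from -0.88 to 0.69, with 7 genes higher and 12 lower in P2. The median log2 change was -0.06, and -0.21 with equal sums. It was -0.02 without P1 replicate 1, -0.09 without P1 replicate 2, -0.14 without P2 replicate 3 and -0.16 over genes of at least 5 FPKM. Of 12 tested immediate early genes, 0 were called, with 9 higher and 3 lower (median 0.08, and -0.06 with equal sums). Gadd45b (7.68 ± 1.02 and 5.17 ± 0.340 FPKM) and Myc (6.95 ± 0.401 and 4.98 ± 0.535) had the smallest p, with log2 changes of -0.49 and -0.41.

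**Figure D4:**
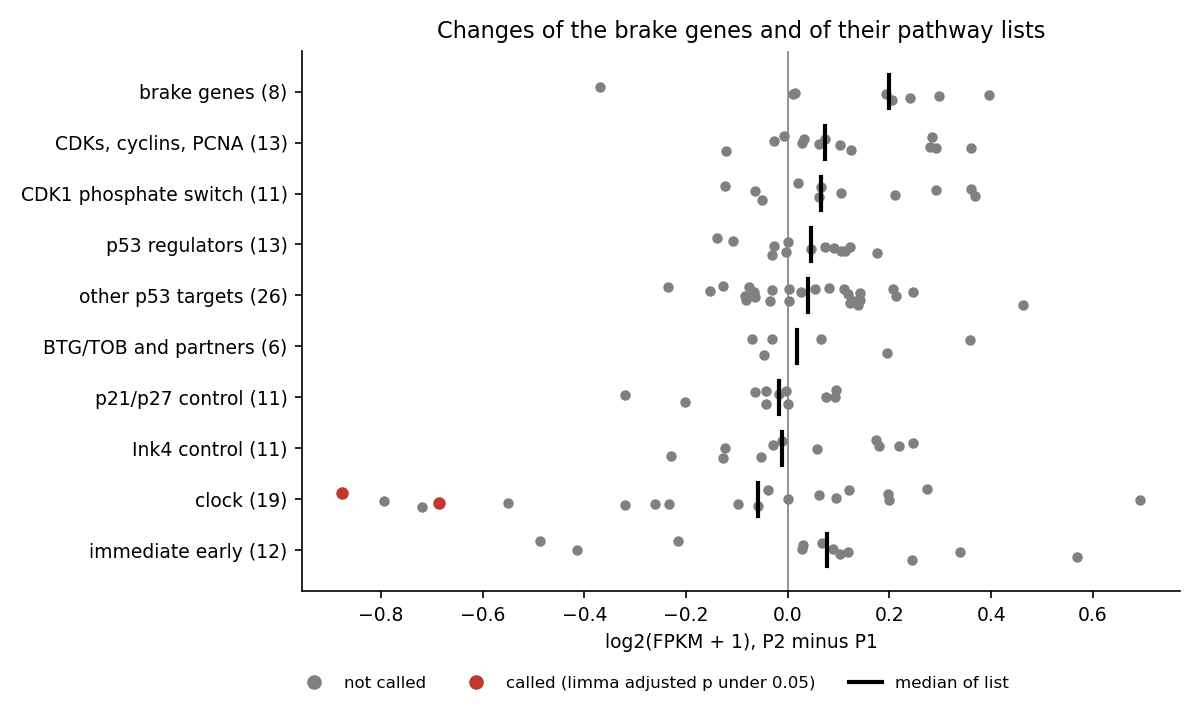
Log2 change (P2 minus P1, log2(FPKM + 1)) of each tested gene in the brake list and in 9 pathway lists, with the number of tested genes in brackets, the median of each list as a black bar and genes called by limma in red. The brake genes have a median of 0.20, and the 2 called genes, Tef and Per3, are in the clock list.

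Patterns over the 6 libraries were compared by Pearson's r of log2 values with 9051 named genes of at least 5 FPKM, as a description. Closest to Ccng1 were Kdelr2, a receptor that returns proteins to the endoplasmic reticulum (r = 0.998), and the proteoglycan gene Ogn (0.994). Closest to Wee1 were Amotl2 (0.996), which encodes an angiomotin-like protein, and Rnaseh2a (0.991), a ribonuclease subunit. For Cdkn1a they were Cep83 (0.993) and Calu (0.990), and for Btg2 Sipa1 (0.994) and the immediate early gene Jun (0.987). With 6 libraries such values are common, since r exceeded 0.95 for 111 genes with Ccng1, 57 with Wee1, 110 with Cdkn1a and 14 with Btg2. Jun was at 20.9 ± 8.01 FPKM in P1 and 25.6 ± 3.22 in P2.

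In the values as deposited, markers of cell types also differed between the ages. The marker levels were not recomputed with equal FPKM sums. Those sums were 716968 to 754510 in P1 and 807632 to 858436 in P2, without overlap. Whether the summed marker levels are higher in P2 therefore depends on the scaling. The higher sums given below may not hold with equal FPKM sums. The summed level of 5 endothelial markers was 217 to 240 FPKM in P1 and 252 to 259 in P2, with 4 of the 5 genes wholly higher in P2, beside 14.4% of all tested genes. The summed level of the heart muscle markers without Tnnt2 was 10829 to 11417 FPKM in P1 and 11672 to 11851 in P2. Of all 9 heart muscle markers, 4 lay wholly higher in P2, beside 14.4% of all tested genes. They were Tnni3, Myl3, Pln and Tnnt2. The values of 0 for Tnnt2 in P1 may be failed estimates, and Myh6 was listed at 0 in all libraries. Summed levels were lower in P2, without overlap, for 5 further lists, while many of their genes overlapped, against 10.6% of all tested genes that lay wholly lower. For the atrial markers given above 2 of the 5 genes lay wholly lower, and Sln and Myl7 in P2 replicate 3 (40.5 and 369 FPKM) were within the P1 range. Of 6 red blood cell markers (961 to 1358 and 754 to 952 FPKM) 3 lay wholly lower, and Hbb-bs overlapped. Of 5 lymphocyte and granulocyte markers (19.2 to 36.7 and 14.8 to 19.0) 1 lay wholly lower. S100a8 and S100a9 made up most of that sum, Cd3e was listed at 0 in P1 replicate 1, and the B cell gene Cd79a was at 0.134, 0.466 and 0.113 FPKM in P1 and at 0.264, 0.443 and 0.370 in P2. Of 4 epicardial markers (38.6 to 43.1 and 31.0 to 38.0) 2 lay wholly lower, and of 3 Schwann cell markers (4.84 to 5.21 and 3.12 to 4.31) 1. The summed levels of fibroblast, macrophage, and pericyte and smooth muscle markers overlapped between the ages. Of the 5 fibroblast markers 1 lay wholly higher in P2, Dcn (178 to 204 and 226 to 252 FPKM). Of the 5 pericyte and smooth muscle markers 1 did, Rgs5 (68.3 to 77.8 and 88.6 to 101 FPKM). The part of these markers in the values of Ccng1, Cdkn1a, Cdkn2d and Wee1 was not tested.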

How the data were processed

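The authors deposited FPKM values for 6 libraries in a single table, with 0 value columns beyond these. Ages and replicate numbers come from the sample titles. Cuffdiff 2.2.1, TopHat2, FastQC and R 3.2 are named in the submitters' processing notes. The sources used here do not give the build, annotation, strand setting or scaling between libraries. Symbols, positions and overlaps are from GENCODE M21 (GRCm38), which named 37605 of 39171 gene identifiers.

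Age was fitted as the only factor with limma 3.58.1 (R 4.3.3, moderated variances with a trend) on log2(FPKM + 1), which understates the change of low genes, over the 13624 genes that averaged 1 FPKM or more. P-values were Benjamini-Hochberg adjusted, two-sided, and called under 0.05. With 3 libraries a side, exact permutation reaches p = 0.1 at the lowest and was not used. The labels give 3 hearts per age but do not tie a library to 1 animal, so the p-values rest on the spread of these libraries, which may be technical.

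The members and lists were chosen with earlier results of these data known. All 10 members were named. Of each pathway list, every called gene was named or, with none, the 2 with the smallest p, and for 4 members the 2 genes with the most similar pattern. Some alternative symbols for the same gene were listed beside each other. On simulated data for this comparison (13516 genes), 73% of genes given a log2 change of 0.5 and 94% of those given 1 were called, with 3 calls among genes given none. The simulated noise was independent between genes, with no shift shared within a library. All brake genes changed by less than 0.5, so these shares do not give the power to detect their changes. The alternatives were another pseudocount, filter, scaling, variance model, weighting, threshold or block, and each library left out. Plots were made with matplotlib 3.10.9 in Python 3.11.15.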

Additional observations from a re-analysis of the deposited data

How the results depend on the processing

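The count of brake genes called was 0 and stayed 0 with a pseudocount of 0.1, no filter, a filter of 5 FPKM, quantile normalization, median ratio scaling, equal sums over the genes off the mitochondrial chromosome, array weights, the replicate block, variances fitted with no trend, and without any 1 library. It was 1 with equal FPKM sums (Wee1, log2 change -0.53, limma adjusted p = 0.0237), 1 without genes listed at 0 in any library (Ccng1, adjusted p = 0.0305; chosen after seeing the data) and 1 at an adjusted p under 0.10 (Ccng1). Over all alternatives the adjusted p of Ccng1 ran from 0.0305 to 0.232 and that of Wee1 from 0.0237 to 0.302. The changes near 0 turned sign: that of Cdkn1b was -0.15 with equal sums, -0.053 with equal sums over the genes off the mitochondrial chromosome (chosen after seeing the data) and -0.0033 with quantile normalization, and ran from -0.040 to 0.061 with 1 library left out (below 0 without P1 replicate 1 or P2 replicate 3), and that of Trp53inp1 was -0.14 and -0.051 with these 2 scalings, -0.0032 with quantile normalization and -0.00074 with median ratios, and ran from -0.034 to 0.042 with 1 library left out (below 0 without P1 replicate 1 or P2 replicate 1). The other 6 kept their sign.

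Over all genes, 10 were called higher and 12 lower. The counts were 18 and 22 with a pseudocount of 0.1, 17 and 24 with a filter of 5 FPKM, 39 and 2394 with equal sums, 12 and 49 with equal sums over the genes off the mitochondrial chromosome, 7 and 7 without a variance trend, 49 and 62 without genes listed at 0, and 50 and 54 at 0.10. Leaving out 1 library gave 2 to 13 higher and 2 to 12 lower. With the replicate number as a block, 3 were higher and 2 lower. The labels do not say whether the numbers pair the samples. Deviations of same-numbered libraries correlated at -0.011, 0.10 and 0.0093 across genes, which does not settle whether they are paired. Under this block the adjusted p of Tef was 0.0597 and that of Per3 0.210. The causes were not tested. Without fragment counts the precision of the lowest values, those of Cdkn2a and Cdkn2b, is unknown.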
